A study of Mus musculus with 28 samples.

Results

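Very broad ATAC-seq peaks that were called in growing C2C12 cells and again met a peak at 60 h of differentiation numbered 1148 of the 181622 peaks in growth medium, a share of 0.632%. C2C12 is a mouse myoblast line whose cells divide in rich serum and, after serum is lowered, leave the cell cycle and fuse into multinucleate myotubes. A region was taken where its peak in growth medium (GM) was at least 2500 bp wide and shared at least 1 bp with a peak of the list made at 60 h in differentiation medium (DM60h). The regions were thus chosen by their measured width in GM and their overlap with the DM60h list, so widths, enrichments and overlaps are given as a description with no test. Of the 1162 GM peaks of 2500 bp or more, 98.8% met a DM60h peak, against 80.4% of all GM peaks. The 1148 regions, called broad kept peaks from here on, covered 3428 kb, which is 3.04% of the length of all GM peaks.

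All samples were wild-type C2C12 cells. GM held 20% fetal bovine serum, and differentiation medium held 3% horse serum for 12, 24, 48, 60 or 96 h (DM12h, DM24h, DM48h, DM60h and DM96h). RNA-seq covered GM and the 5 times with 3 libraries each, ATAC-seq covered GM and DM60h with 2 libraries each, and Hi-C covered GM and DM60h with 3 libraries each. The labels call these biological replicates of a single cell line and describe no separate cultures, so p-values measure only the spread between these libraries, which may be technical. The deposited peaks come as 1 list per condition and carry no counts, so their depth is unknown and no region has a replicate error. RNA totals ran from 24154680 to 36405121 counts per library, and 15303 genes passed the filter on low counts. The 9 skeletal muscle markers examined all passed that filter, with summed levels of 844 to 877 CPM (counts scaled to the size of each library) in the GM libraries and 2802 to 3054 CPM at 60 h. Of the 7 bone and cartilage markers only Spp1 passed, Acan and Ibsp had no count, and the summed level was 2176 to 2428 CPM in GM and 1141 to 1211 CPM at 60 h. At most 3 markers of each other cell type passed. Between GM and 60 h the summed levels went from 49.3 to 55.6 CPM to 57.5 to 67.2 CPM for adipocyte markers, from 86.7 to 92.7 CPM to 62.1 to 63.1 CPM for neural ones and from 15.6 to 16.5 CPM to 8.97 to 9.60 CPM for epithelial ones. Endothelial markers (0.408 to 0.499 and 1.72 to 1.97 CPM) and blood markers (2.22 to 2.26 and 0.665 to 0.917 CPM) stayed below 3 CPM. The part of these cell types in the RNA results was not tested.

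ATAC-seq marks open chromatin: the Tn5 transposase inserts sequencing adapters where DNA is not wrapped tightly in nucleosomes, so promoters and enhancers give peaks. A typical open promoter or enhancer is a short nucleosome-poor stretch, and a broad call joins neighbouring enriched stretches into a longer domain. In muscle cells, promoters of widely used genes stay open in myoblasts and myotubes, whereas many enhancers bound by MyoD-family factors change with differentiation.

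The DNA around start sites in broad kept peaks was mostly rich in CpG, the pair of bases that marks CpG-island promoters, with Klhl40 and Myf5 among the exceptions. RefSeq start sites (build GRCm38.p6, which mm10 coordinates follow, windows of 300 bp with 250 bases before and 50 after the start) gave 602 start sites of 501 genes inside these peaks. The median GC share of their windows was 65.3%, and 75.4% of the windows had a CpG ratio (observed over expected from base composition) of at least 0.6. Windows of start sites in narrower kept peaks, taken throughout as those of at least 1000 but under 2500 bp, had a median GC share of 62.7% and reached that ratio in 75.1%, and windows of start sites outside all GM peaks did so in 8.62%. The 8 stretches printed here run over the 250 bases before the start, on the strand of the gene, and were chosen because they span that range in genes whose RNA is described further on. Capitals mark each CG pair.
Klhl40: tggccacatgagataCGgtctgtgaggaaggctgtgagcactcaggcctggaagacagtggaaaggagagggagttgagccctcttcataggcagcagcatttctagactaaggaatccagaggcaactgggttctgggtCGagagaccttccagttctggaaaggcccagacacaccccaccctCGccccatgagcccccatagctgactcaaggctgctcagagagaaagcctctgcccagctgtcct
Myf5: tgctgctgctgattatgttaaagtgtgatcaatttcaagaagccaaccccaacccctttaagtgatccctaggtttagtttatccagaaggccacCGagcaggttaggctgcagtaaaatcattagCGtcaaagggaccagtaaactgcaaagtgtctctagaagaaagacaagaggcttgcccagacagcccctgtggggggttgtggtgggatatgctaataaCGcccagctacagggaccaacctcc
Malat1: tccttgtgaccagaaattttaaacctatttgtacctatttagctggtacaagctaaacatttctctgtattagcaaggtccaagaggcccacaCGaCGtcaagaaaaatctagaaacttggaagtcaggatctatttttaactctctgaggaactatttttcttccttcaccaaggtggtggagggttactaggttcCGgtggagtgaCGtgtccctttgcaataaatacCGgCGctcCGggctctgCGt
Fos: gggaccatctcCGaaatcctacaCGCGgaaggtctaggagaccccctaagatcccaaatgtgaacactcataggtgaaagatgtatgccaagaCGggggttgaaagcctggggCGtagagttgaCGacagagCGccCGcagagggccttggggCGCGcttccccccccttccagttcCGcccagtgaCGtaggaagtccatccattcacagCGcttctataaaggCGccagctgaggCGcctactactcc
Cacnb1: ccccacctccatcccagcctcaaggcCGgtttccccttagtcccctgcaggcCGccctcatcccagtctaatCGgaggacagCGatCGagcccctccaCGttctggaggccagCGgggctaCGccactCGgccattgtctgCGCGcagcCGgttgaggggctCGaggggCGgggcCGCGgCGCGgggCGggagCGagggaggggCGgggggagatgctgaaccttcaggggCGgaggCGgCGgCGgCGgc
Hhip: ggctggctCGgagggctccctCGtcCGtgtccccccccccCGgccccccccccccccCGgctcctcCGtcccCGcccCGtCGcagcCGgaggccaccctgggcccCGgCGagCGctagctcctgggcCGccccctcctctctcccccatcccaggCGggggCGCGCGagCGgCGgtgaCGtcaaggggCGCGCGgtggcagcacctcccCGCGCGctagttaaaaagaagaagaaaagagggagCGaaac
Klf4: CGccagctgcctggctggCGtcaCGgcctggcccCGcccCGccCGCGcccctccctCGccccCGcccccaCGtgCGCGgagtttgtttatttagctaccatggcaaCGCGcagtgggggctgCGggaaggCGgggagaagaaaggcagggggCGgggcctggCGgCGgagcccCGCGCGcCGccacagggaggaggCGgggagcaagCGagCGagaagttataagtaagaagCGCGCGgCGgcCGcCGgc
Actg1: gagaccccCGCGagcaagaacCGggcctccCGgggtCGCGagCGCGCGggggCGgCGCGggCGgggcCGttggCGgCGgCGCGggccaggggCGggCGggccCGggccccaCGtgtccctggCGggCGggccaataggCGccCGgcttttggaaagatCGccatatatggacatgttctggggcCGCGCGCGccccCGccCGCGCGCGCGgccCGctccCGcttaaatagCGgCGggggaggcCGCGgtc

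The first pair of sequences, at chr9:121777357-121777606 (plus strand) and chr10:107486135-107486384 (minus strand), held 3 CG pairs each, with CpG ratios of 0.149 and 0.202. Klhl40 encodes a sarcomere-associated protein that stabilises thin filaments, and Myf5 is a myogenic determination factor. The stretch before Malat1, a nuclear long non-coding RNA, lies at chr19:5802673-5802922 (minus strand) and held 8. The stretch before Fos, a subunit of the AP-1 factor, lies at chr12:85473640-85473889 (plus strand) and held 15. Cacnb1 at chr11:98022628-98022877, a calcium channel subunit of the muscle excitation apparatus, held 26 on the minus strand. Hhip at chr8:80058009-80058258, a membrane protein that binds Hedgehog ligands, held 28 and Klf4 at chr4:55532476-55532725, a growth response factor, held 32, both on the minus strand. Actg1 at chr11:120348496-120348745, cytoplasmic gamma-actin, held the most of the 8, with 43 pairs on the minus strand and a ratio of 1.11. The letters CAGCTG, the E-box that MyoD-family factors prefer, began 10 bases before the Klhl40 start, and TGACTCA, the AP-1 letters, began 44 bases before it. CAGCTG began 22 bases before the Fos start, next to a TATAAA that began 33 bases before it.

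The same letters were counted on both strands of every promoter window. CAGCTG was in 15.1% of the windows at broad kept peaks, 15.1% of those at the narrower kept peaks and 16.3% of all 32851 windows. TGACTCA was in 4.15%, 3.89% and 5.202%, and CATTCC, the TEAD letters, in 11.6%, 11.5% and 14.7%. GGGCGG, the GC box bound by SP and KLF factors, was in 69.1% of the windows at broad kept peaks, in 67.5% at the narrower kept peaks and in 35.7% of all windows. CCAAT, the letters bound by NF-Y, was in 30.1%, 35.7% and 37.4%. Windows of neighbouring start sites of a gene overlap, so these shares are not over independent stretches.

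**Figure D1:**
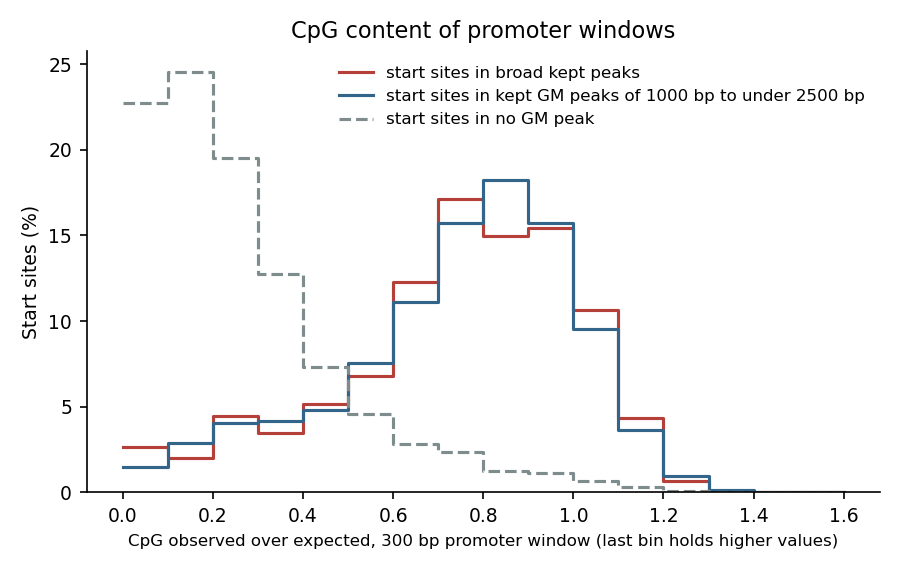
Share of start sites (vertical axis, %) by the CpG ratio of the 300 bp promoter window (horizontal axis, in steps of 0.1), for start sites in broad kept peaks (red), in narrower kept peaks of at least 1000 bp (blue) and in no GM peak (dashed grey). The red and blue lines lie close together, with 75.4% and 75.1% of start sites at or above 0.6, while the dashed line is highest below 0.3.

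Broad kept peaks were less enriched than the narrower kept peaks of at least 1000 bp, and slightly more than the typical GM peak. Their widths had a median of 2852 bp and ran from 2500 to 7012 bp. The authors' fold enrichment in GM had a median of 3.12 with a range of 1.28 to 5.84, against a median of 4.96 in the 30746 narrower kept peaks and 2.88 in all GM peaks. It is a single value per peak and does not show how the signal varied within the peak. Among kept peaks on the chromosomes of the start-site table, the median fold first rose and then fell with width. It was 2.43 under 500 bp, 4.62 from 500 to under 1000 bp, 5.39 from 1000 to under 1500 bp, 4.03 from 2000 to under 2500 bp, 3.45 from 2500 to under 3000 bp and 1.98 at 4000 bp and above. The authors' −log10 q also rose and then fell, with medians of 10.2, 65.4, 121, 110, 89.4 and 9.46 in the same classes. From 1500 to under 2000 bp the median fold was 4.76, already past its peak, while the median −log10 q was at its highest, 129. In all, 158 of the 1148 regions had a −log10 q under 5, and 30 of them missed a q of 0.05. The 3 regions nearest the limit from above measured 2500, 2501 and 2502 bp with folds of 5.06, 4.22 and 4.48, the first inside Zfhx3 and the second at the Alkbh5 start. The 3 kept peaks nearest from below were 1, 2 and 2 bp too narrow, lay in Tbc1d8, Ncoa2 and Ptprk, and had folds of 2.01, 4.08 and 3.89.

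**Figure D2:**
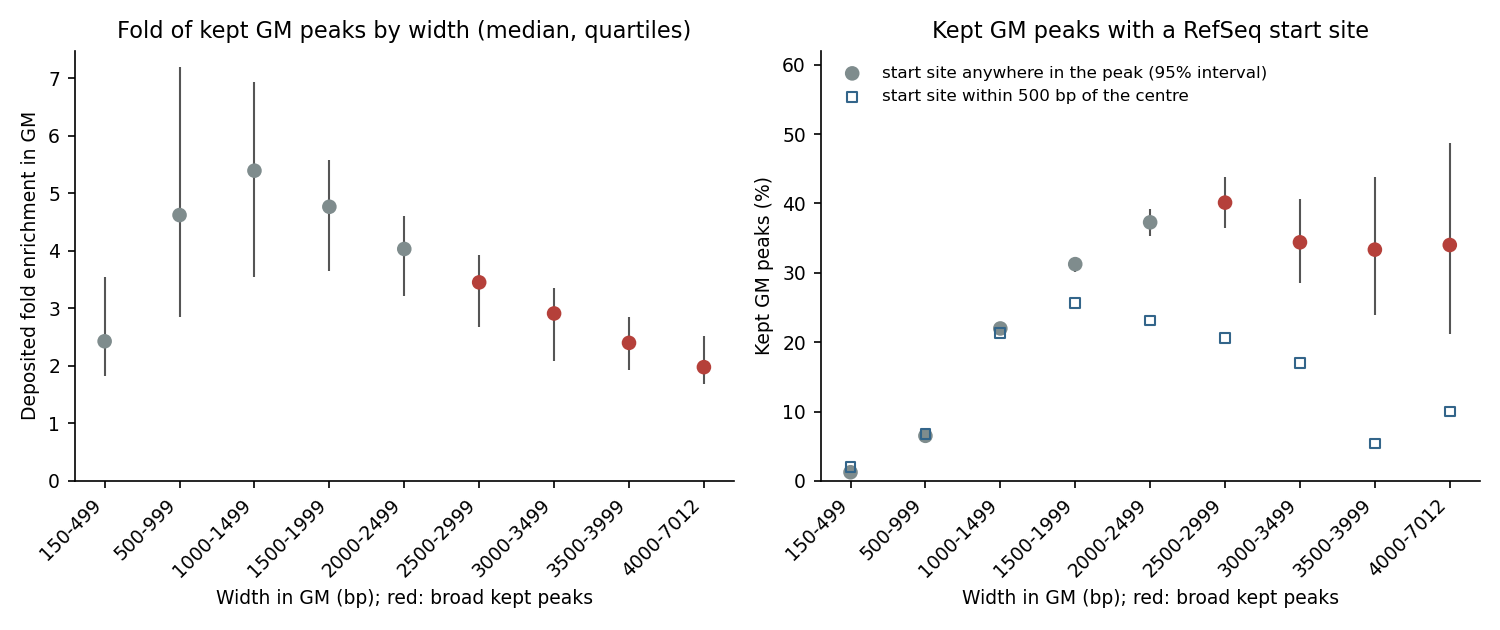
Left, the deposited fold enrichment in GM (median with quartiles) of kept GM peaks by width class in bp. Right, the share of these peaks (%) with a RefSeq start site anywhere in the peak (circles, 95% exact interval) and within 500 bp of the peak centre (open squares). Red marks broad kept peaks, whose median fold was 3.45 in the narrowest of the 4 red classes and 1.98 in the widest, while the narrowest class of all stood at 2.43.

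The 3 widest regions lay in genes on chromosome 15 (build mm10). The first, at chr15:6527221-6534232, measured 7012 bp within Fyb, the gene of an adaptor protein of blood cells, with a fold of 1.99. The second, at chr15:102500527-102506379, measured 5853 bp within Map3k12, a stress kinase, with a fold of 1.54. The third, at chr15:76593306-76598541, measured 5236 bp over Cpsf1, a subunit of the complex that cleaves pre-mRNA ends, and Adck5, with a fold of 1.57. Of the 15 widest regions, 4 held a RefSeq start site. The region at chr8:11311634-11316331 measured 4698 bp over the shared promoter of Col4a1 and Col4a2, the head-to-head genes of basement membrane collagen. The others were a 4609 bp region at the Sertad4 start, a 4496 bp region at the start of Gfi1, a transcriptional repressor of blood cells, and a 4470 bp region at the start of Ubtf, the factor that activates ribosomal RNA genes. Chromosome 15 held 98 broad kept peaks, 33 of them among the 287 weakest regions by fold, 8.56% of all with a 95% exact interval of 7.003 to 10.3%, against 5.72% of the narrower kept peaks. Chromosome 19 held 4.10% (3.03 to 5.42%) against 2.86%, and chromosome 10 held 7.34% (5.89 to 9.002%) against 5.68%. Chromosome 9 held fewer, with 3.41% (2.43 to 4.63%) against 4.90%. On the other chromosomes the interval held the share of the narrower kept peaks.

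At 60 h most of this open chromatin was still called, often over a shorter stretch. The 1148 regions met 1447 DM60h peaks: 869 regions met 1 peak, 261 met 2, 16 met 3 and 2 met 4. The DM60h peaks covered a median of 93.2% of each region, with 611 regions covered to at least 90% and 78 to less than 50%. The ratio of the summed DM60h width to the GM width had a median of 0.955, lay between 0.9 and 1.1 in 585 regions, under 0.9 in 494 and above 1.1 in 69. In the narrower kept peaks the median ratio was 0.997, and 95.6% met a single DM60h peak against 75.7% of the broad ones. A DM60h peak that was itself at least 2500 bp wide lay on 660 regions, or 57.5%. The ratio depends on which list the width rule is set on: 1307 DM60h peaks were at least 2500 bp wide, 97.6% met a GM peak, and their median width was 1.08 times that of the GM peaks under them. The authors' fold at 60 h, taken as the highest among the DM60h peaks on a region, had a median of 3.10. It stands beside the 3.12 in GM only for orientation, since the lists were made separately. Taking the highest of several peaks also raises it, so the 2 medians do not show whether enrichment changed.

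**Figure D3:**
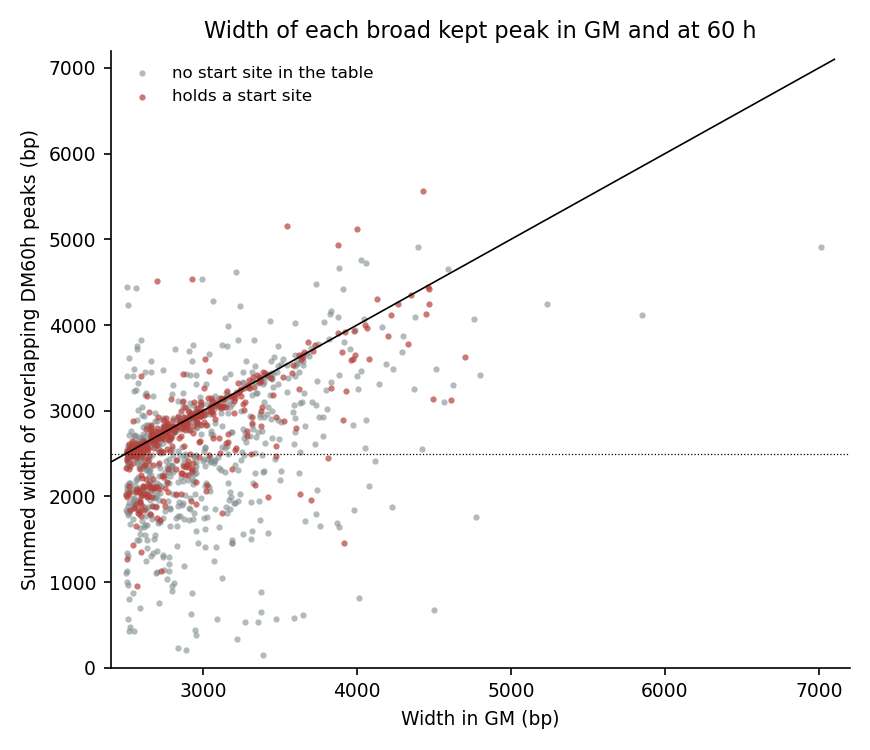
Width of each broad kept peak in GM (horizontal axis, bp) and summed width of the DM60h peaks that overlap it (vertical axis, bp), in red where it holds a RefSeq start site and in grey where it does not. The solid line marks equal width and the dotted line 2500 bp. Red points gather along the solid line, and most points far below it are grey.

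Regions that held a start site were covered more fully at 60 h. Among the 423 of them the DM60h peaks covered a median of 97.7% of the GM width, and 4 were covered to less than 50%. Among the 691 regions with no start site on the same chromosomes the median was 83.3% and 74 were covered to less than 50%. The narrower kept peaks had medians of 99.0% with a start site and 96.5% without. Enrichment moved with this: the median fold in GM was 3.37 with a start site and 2.86 without. Of the 287 weakest regions by fold 55 were covered to less than 50%, and of the 287 strongest 3 were. The part of enrichment in the difference by start site was not tested.

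The named extremes show both ends. The smallest ratio was at chr5:136122327-136125717, a 3391 bp region over Polr2j, a subunit of RNA polymerase II, where 150 bp remained and the −log10 q in GM was 0.675. Next came 2889 bp in Prkcsh with 213 bp left, 2836 bp in Nexn, an actin-binding protein of the Z-disc, with 234 bp left, 3223 bp in Slc4a5 with 334 bp left, and 2953 bp beside Pck2 with 379 bp left. The largest ratio was at chr10:77646284-77648790 beside Ube2g2, where a 2507 bp region met a DM60h peak of 4439 bp, at a fold of 1.67 in GM. A 2562 bp region beside Arhgef10l met 4430 bp, a 2511 bp region at Atg4d and Kri1 met 4236 bp, a 2703 bp region at the start of Nacad met 4513 bp, and a 2930 bp region at Inppl1 met 4540 bp. Regions at 2 genes of the contractile cytoskeleton also widened: 3999 to 5119 bp at Flnc, which encodes the Z-disc protein filamin C and where the DM60h peaks extended past the GM peak and covered 69.0% of it, and 2872 to 3431 bp at Tpm2, which encodes beta-tropomyosin. A region over the Tnnt3 gene edge, which encodes fast troponin T, went from 3226 to 3830 bp.

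Start sites were common in broad kept peaks but not dense. Of the 1114 regions on chromosomes that the start-site table covers, 423 held a RefSeq start site, which is 38.0% with a 95% exact interval of 35.1 to 40.9%. In the narrower kept peaks it was 25.4% (24.9 to 25.9%). Per length the order turned: 151 genes with a start site per Mb of broad kept peak against 210 per Mb of the narrower kept peaks. A start site within 500 bp of the centre was found in 18.04% of the broad and 22.5% of the narrower peaks, and in 5.38% of the regions from 3500 to under 4000 bp. In the 295 regions with exactly 1 start site, the peak reached a median of 1735 bp into the transcribed side and 1137 bp to the other, and was longer on the transcribed side in 64.7%. The narrower kept peaks had medians of 813 and 536 bp, with 68.4% longer on that side. The table leaves out part of the genes, so these shares are lower bounds. A further 151 regions (13.2%) held the start or end of a gene with no entry in the table, 412 (35.9%) lay in a gene without either, and 162 (14.1%) lay outside genes, against 26.0% of the narrower kept peaks.

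The share with a start site varied with enrichment. Of the 287 weakest regions by fold, from 1.28 to 2.32, 11.6% held a start site (95% exact interval 8.04 to 15.9%). In the following sets of 287 by rising fold it was 44.1%, 51.3% and 44.8%. Windows at start sites in the weakest set reached a CpG ratio of 0.6 in 38.9% of 36 cases, against 76.9 to 78.8% in the other sets. The 3 strongest regions by fold, at 5.84, 5.39 and 5.25, lay in Snapc3, outside genes at 165769 bp from Tgfbr2, and in Uqcc1, and none held a start site of the table. Their DM60h peaks covered 73.6%, 63.0% and 51.0% of them.

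Broad kept peaks also came in runs. With neighbours joined at distances of up to 50 kb, 222 of the 1148 regions (19.3%) fell into 100 runs. Runs were not counted for the narrower kept peaks, so this share has no comparison. The longest lay at chr19:5756649-5847225 and held 6 regions around Malat1 and Neat1, a pair of abundant nuclear long non-coding RNA genes. A 2681 bp region lay at the Malat1 start with a fold of 3.42, and a 3482 bp region followed at chr19:5808989-5812470 with 3.16. The regions over Neat1 were weaker, at 4049, 3731 and 2952 bp with folds of 1.299, 1.33 and 1.69. The 3 over Neat1 were covered at 60 h to 63.3%, 48.1% and 100%. The second run, at chr15:64058815-64095982, held 4 regions between Cyrib and Asap1, with folds of 1.599 to 2.92. Another 16 runs held 3 regions, and the 3 that spanned the longest stretches lay at Rasa4 and Orai2 on chromosome 5, with folds of 4.67 and 3.75 at the start sites and 1.49 at the region between them, within Nol4l on chromosome 2 with 2.86 to 3.47, and around Baz2a on chromosome 10 with 1.70 to 2.62.

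RNA of genes with a start site in a broad kept peak was measured in all 18 RNA-seq libraries, which the choice of regions did not use. Of the 501 genes, 449 matched the count table, 444 had a count and 387 passed the filter on low counts, so the counts that follow are over those 387. Their median level was 4.73 on the log2 CPM scale, a value not per gene length and so not set beside other genes. At 60 h against GM, 132 were higher (34.1%) and 163 lower (42.1%), by edgeR's quasi-likelihood test at a Benjamini-Hochberg adjusted p under 0.05. Over all genes tested 33.1% were higher and 32.2% lower. The share lower among genes of the narrower kept peaks was 38.0%, and the share higher 34.5%. The median log2 fold change of the 387 genes was −0.06, and that of all genes 0.01. Changes of at least 2-fold were called in 71 genes (18.3%), against 16.6% of all genes.

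Calls among these genes split most unevenly at 12 h, though with scaling by total counts the 60 h split was slightly more uneven. At 12 h, 57 of the 387 genes were higher (14.7%) and 127 lower (32.8%), against 17.8% and 17.2% of all genes tested and 20.1% and 20.8% of the genes at narrower kept peaks. At 24 h, 35.9% were higher and 28.2% lower, with 30.2% and 30.6% over all genes. At 48 h the shares were 36.7% and 36.2%, with 32.5% and 32.8% over all genes. At 96 h, 42.6% were higher and 32.6% lower, with 34.8% and 34.1% over all genes. Among genes at narrower kept peaks, 30.8% were higher and 37.1% lower at 24 h, and 32.3% and 39.0% at 48 h. At 96 h it was 37.2% and 38.5%. Against the narrower kept peaks, the share lower was thus greater at broad kept peaks at 12 h and smaller at 24, 48 and 96 h. Scaled by total counts, 38.8% of the called genes were higher at 12 h and 37.2% at 60 h, against 30.98% and 44.7% with TMM scaling. Over all genes tested, 60.2% and 41.8% of the calls were higher with total counts, and 50.8% and 50.6% with TMM. The distance from all genes was thus larger at 12 h than at 60 h in both scalings. These comparisons share the GM libraries. Leaving out 1 library at a time gave 22.8 to 31.5% lower at 12 h, with 11.9 to 16.6% over all genes. The genes with an edge in a broad kept peak and no entry in the start-site table, 153 of them tested, were 16.99% higher and 35.3% lower at 12 h, and 31.4% higher and 41.2% lower at 60 h.

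**Figure D4:**
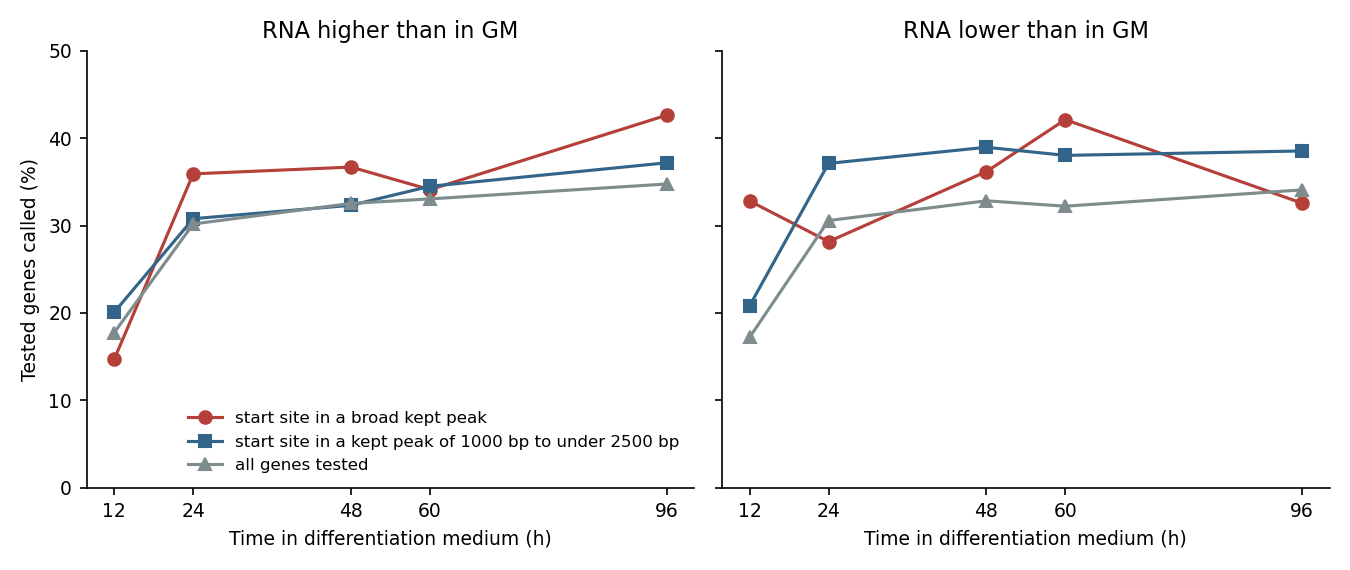
Share of tested genes (%) whose RNA was called higher (left) or lower (right) than in GM at 12, 24, 48, 60 and 96 h, for genes with a start site in a broad kept peak (red), in a narrower kept peak of at least 1000 bp (blue) and all genes tested (grey). At 12 h the red line is at 14.7% higher and 32.8% lower, while grey is at 17.8% and 17.2%.

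Ranks at 12 h are among the genes whose mean reached 3 on the log2 CPM scale. The falls at 12 h were led by Kmt2d, a histone H3 lysine 4 methyltransferase of enhancers, Ddit3, a stress-induced factor, and Flnc. Kmt2d stood at 63.6, 51.5 and 52.7 CPM in GM and 23.4, 19.4 and 20.3 CPM at 12 h, with no overlap. Its log2 fold change was −1.41 (SE 0.24, edgeR adjusted p 9.48e-05). Ddit3 fell by 1.24 on the log2 scale (SE 0.08, edgeR adjusted p 2.89e-10), and Flnc by 1.02 (SE 0.08, edgeR adjusted p 7.76e-09). The largest rises at 12 h were those of Klhl40, by 1.98, Pgk1, a glycolytic enzyme, by 0.69, and Cpt1a, which carries fatty acids into mitochondria, by 0.68. The Pgk1 and Cpt1a levels at 60 h were not called different from GM (edgeR adjusted p 0.18 and 0.184). Pgk1 has processed copies elsewhere in the genome, so its counts may be split or shared.

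Klhl40 showed the largest rise at 60 h among the genes at broad kept peaks whose mean reached 3 on the log2 CPM scale. Its libraries read 0.630, 0.458 and 0.897 CPM in GM and 27.6, 26.4 and 28.7 CPM at 60 h. The mean went from 0.662 ± 0.221 CPM (SD, n = 3) in GM over 2.61 at 12 h, 8.62 at 24 h, 18.6 at 48 h and 27.5 at 60 h to 51.6 ± 2.79 CPM at 96 h. Every time stood above the previous one with no overlap between libraries. The log2 fold change at 60 h was 5.38 (SE 0.13, edgeR adjusted p 7.85e-19). The peak itself measured 2593 bp in GM, where the gene was below 1 CPM in each library, with a fold of 4.16, and 2321 bp at 60 h with 4.14.

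Inhbb, a subunit of activin, had the second largest rise, from 24.8, 20.8 and 25.6 CPM to 131, 141 and 133 CPM (log2 fold change 2.51, SE 0.07, edgeR adjusted p 2.93e-18). At 12 h its libraries read 26.1, 27.0 and 23.2 CPM, overlapping those of GM. Zfp36l1, which promotes decay of AU-rich mRNAs, rose by 2.08. Malat1 rose from 5572 ± 97.7 CPM (SD, n = 3) in GM to 22235 ± 884 CPM at 60 h, a log2 fold change of 2.00 (SE 0.05, edgeR adjusted p 2.58e-18), with its highest mean at 48 h. Cxcr4, a chemokine receptor of migrating muscle precursors, rose by 1.76, the extracellular protease Adamts1 by 1.65, Cacnb1 by 1.57, the signalling adaptor Traf4 by 1.54, the secreted protein Ntn4 by 1.44 and the zinc finger gene Zfp651 by 1.43. Cacnb1 fell by 0.70 at 12 h before it rose, and its log2 fold change reached 2.99 at 96 h. Among the same genes the 3 largest rises were those of Klhl40, Zfp36l1 and Adamts1 at 24 h, Klhl40, Zfp36l1 and Malat1 at 48 h, and Klhl40, Cacnb1 and Inhbb at 96 h.

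Hhip had the largest fall at 60 h among the genes whose mean reached 3 on the log2 CPM scale. Its libraries read 30.4, 31.5 and 29.9 CPM in GM, 5.82, 6.72 and 4.63 CPM at 60 h and 1.05, 1.04 and 0.668 CPM at 96 h. The log2 fold change was −2.43 at 60 h (SE 0.10, edgeR adjusted p 3.58e-15) and −5.04 at 96 h. Its peak was 2943 bp wide in GM and 2951 bp at 60 h, covered to 99.9%. The replication-dependent histone genes H2ac6 and H4c1 fell by 2.30 and 1.62 at 60 h. Their peaks narrowed from 3630 to 2032 bp and from 2686 to 2106 bp. Histone gene copies resemble each other closely, so their counts are uncertain. Hmga2, a chromatin protein of growing and embryonic cells, fell by 1.76, from a mean of 87.6 ± 0.837 to 25.8 ± 2.81 CPM (SD, n = 3). The sulfotransferase Chst1 fell by 1.75, Kmt2d by 1.62, the nuclear coregulator Zmiz1 by 1.59, Ddit3 by 1.37, the chromatin-bound factor Hcfc1 by 1.32, and Cebpb, a factor of adipocyte and muscle precursors, by 1.24. Above that mean level the 3 largest falls were those of H2ac6, H4c1 and Ddit3 at 24 h, Hhip, H2ac6 and Hmga2 at 48 h, and Hhip, H2ac6 and H4c1 at 96 h. A second region at Hmga2, 4501 bp inside the gene at chr10:120365445-120369945 with a fold of 1.63, kept 672 bp at 60 h.

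Kmt2d was low at 12, 48 and 60 h and high at 96 h, and at 24 h 1 library stood apart. Its mean was 18.2 ± 1.07 CPM (SD, n = 3) at 60 h and 72.0 ± 8.11 CPM at 96 h, and the 96 h change was not called (log2 fold change 0.37, edgeR adjusted p 0.153). At 24 h its libraries read 30.4, 24.2 and 70.4 CPM. The third library at 24 h was at least 0.5 above both others on the log2 scale for 10 of the 283 genes above that mean level, and for 87 of all 9378 such genes. The 10 were Kmt2d, Spen, Zfhx3, Kmt2a, Gse1, Zmiz1, Hipk2, Wnk1, Kmt2c and Igf1r, of which all but Igf1r were lower at 60 h. Kmt2a, another histone H3 lysine 4 methyltransferase, fell by 1.18 at 60 h. What set that library apart was not tested. The 60 h comparison uses none of its counts for the 60 h or GM means, but shares with it the filter, the scaling and the estimate of spread.

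**Figure D5:**
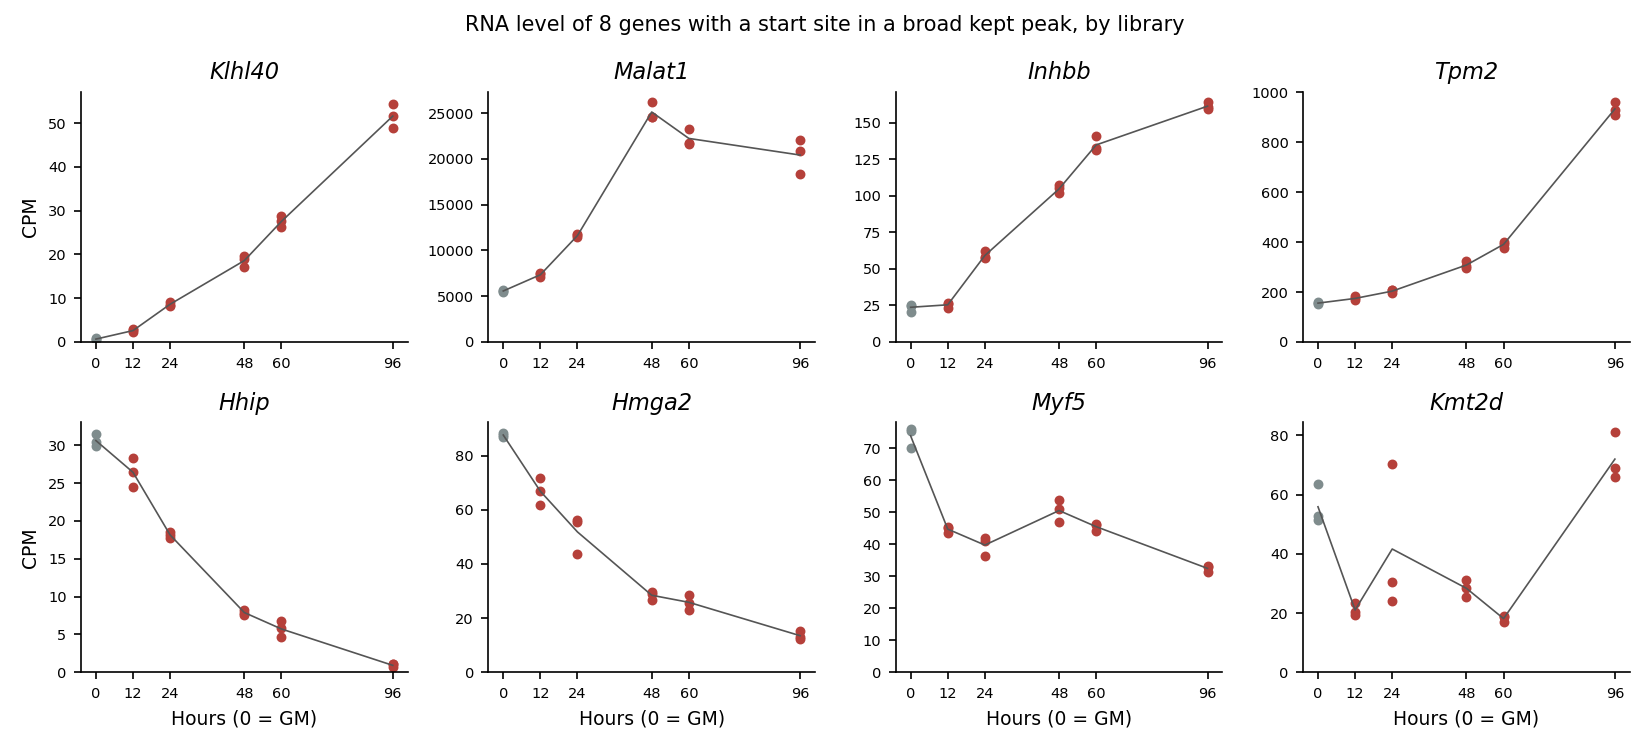
RNA level (CPM, vertical axis from 0) against hours in differentiation medium, with GM at 0, for 8 genes with a start site in a broad kept peak. Points are libraries, 3 per time, and lines join the means. Klhl40, Malat1, Inhbb and Tpm2 are higher at 60 h than in GM, Hhip, Hmga2, Myf5 and Kmt2d lower, and the third Kmt2d library at 24 h lies at 70.4 CPM.

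Some muscle regulators and contractile genes had a start site in a broad kept peak. Over all genes of the start-site table the share was 501 of 27025, or 1.85%, and it is given for the lists only as a description. Of 19 myogenic factors, 13 of them in that table, Myf5 and Six5 had one. Myf5 fell by 0.70 at 60 h (SE 0.06, edgeR adjusted p 4.17e-10), from 75.6, 76.0 and 70.3 CPM to 44.3, 46.4 and 46.0 CPM, and its 3830 bp peak was covered to 84.5%. It was already at 44.8 ± 0.953 CPM (SD, n = 3) at 12 h. Six5, a homeobox factor, had a log2 fold change of 0.29 with an edgeR adjusted p of 0.115. Of 45 sarcomere genes, 34 in the table, Klhl40 and, by its edge, Tnnt3 lay at a region, and both rose, Tnnt3 by 5.63. In the whole list 43 of 44 tested genes were higher. Of 32 genes of muscle calcium handling, fusion and energy, 22 in the table, Cacnb1 and Eno3 had a start site and Cacng1, a calcium channel subunit, an edge. Cacnb1 and Cacng1 rose, Cacng1 by 1.21, and the muscle enolase Eno3 had a log2 fold change of −0.05 (edgeR adjusted p 0.276). In the whole list 29 of 30 tested genes were higher.

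Growth and signalling genes at broad kept peaks moved both ways. Of 37 growth response factors, 5 had a start site in a broad kept peak (Fos, Egr2, Klf4, Klf13 and Dusp6) and 2 an edge (Egr3 and Dusp4). Of these 7, 2 were higher at 60 h and 3 lower, and in the whole list 7 and 17 of 35. Fos stood at 1.52, 1.25 and 1.20 CPM in GM and 2.95, 3.78 and 2.92 CPM at 60 h, a log2 fold change of 1.29 (SE 0.17, edgeR adjusted p 1.19e-06), at a peak of 2701 bp in GM and 2756 bp at 60 h. Egr2 rose by 0.84. Klf4 fell by 0.63, Klf13 by 0.49 and the MAP kinase phosphatase gene Dusp4, by its edge, by 0.98. Its relative Dusp6 had a log2 fold change of −0.06 (edgeR adjusted p 0.458), at a peak of 2841 and 2876 bp. Of 12 tested regulators of Wnt, Hedgehog and growth factor signalling, 4 were higher and 6 lower, against 25 and 19 of 55 in the whole list. The Wnt ligand Wnt9a rose by 1.36, while the Hedgehog receptor Ptch1 fell by 0.93 and the kinase Sgk1 by 0.85. Of 30 tested genes of TGF-beta signalling, 11 were higher and 10 lower. Of the 4 at broad kept peaks, the receptor Tgfbr1 rose by 1.01 and the corepressor Tgif1 by 0.42, and the ligand Tgfb1 fell by 0.55 and the ubiquitin ligase Smurf1 by 0.48. Wwtr1, a coactivator of TEAD factors, rose by 0.48, and Ajuba, a junction protein of the same pathway, fell by 0.20. Numbl, a Notch inhibitor, rose by 0.30.

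Developmental factors, most of them transcription factors, gave more genes at these regions than any other list, and were also the longest list. Of 89, 60 of them in the start-site table, 11 had a start site and 4 an edge. The signalling list had 10 genes with a start site in a broad kept peak, of 41 in that table. Of the 15 developmental factors tested, 3 were higher and 7 lower at 60 h, against 16 and 34 of 67 in the whole list. Among those higher were Zfp36l1, which is an RNA-binding protein, and the mesenchymal homeobox factor Prrx1, the second by 0.45. Twist2, a basic helix-loop-helix factor that inhibits MyoD, went from 19.8, 18.9 and 18.98 CPM to 4.53, 5.85 and 4.86 CPM, a fall of 1.92 (SE 0.10, edgeR adjusted p 4.57e-13), and its peak from 2586 to 2046 bp. Sox12 fell by 2.02 at a low level of 1.41 CPM in GM, and Foxc1 by 0.44. Of 39 HOX genes, Hoxa10 had a start site 3 bp inside the end of a 2944 bp region, which lay almost wholly on the transcribed side. Hoxa10 rose by 0.50. Hoxb7 and Hoxc11 were among those with an edge, and Hoxc11 fell by 0.32. Of 3 tested HOX genes at broad kept peaks 1 was higher and 1 lower, against 3 and 3 of 24 in the whole list.

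Cytoskeleton, matrix and chromatin genes completed the lists. Of 6 tested actin cytoskeleton genes at broad kept peaks 2 were higher and 3 lower, against 15 and 21 of 40 in the whole list. Tpm2 went from 159, 156 and 152 CPM to 393, 377 and 402 CPM (log2 fold change 1.33, SE 0.05, edgeR adjusted p 2.37e-16), and the intermediate filament gene Nes rose by 0.71 under a 4466 bp peak. Tagln2 fell by 1.07 and Actg1, which has close relatives and processed copies, by 0.58. Of 5 matrix genes 4 were higher, and in the whole list 32 of 50 were higher and 14 lower. The membrane-type protease gene Mmp14 rose by 0.91, Col4a1 by 0.55, Col4a2 by 0.46 and Col1a2 by 0.16. Col5a1 had a log2 fold change of −0.12 (edgeR adjusted p 0.0909). The Col1a2 call was lost without the second GM library (edgeR adjusted p 0.0628) and with scaling by total counts (log2 fold change 0.07, edgeR adjusted p 0.203). Of 8 tested chromatin regulators 2 were higher and 6 lower, against 13 and 28 of 51 in the whole list. Kmt2d and Kmt2a were among the lower, and the demethylase gene Kdm2b fell by 0.62 and the SWI/SNF subunit gene Arid1b by 0.53. Of 4 cell cycle regulators 3 were lower and none higher, against 22 and 15 of 42 in the whole list, with Cdk6 down by 0.75 and, by its edge, Ccnd2 by 0.91. E2f3 was the third, down by 0.19, a call lost without the second 60 h library (edgeR adjusted p 0.242), the second GM library (0.0528) or the third GM library (0.0611). None of 50 DNA replication and mitosis genes, 49 of them lower at 60 h, and none of 17 CTCF and cohesin genes in the count table had a start site or edge in a broad kept peak. The start-site table holds 42 and 12 genes of these lists, and at its overall share of 1.85% a count of 0 in lists of that size says nothing particular about them. Neat1 had a log2 fold change of 0.30 with an edgeR adjusted p of 0.0374, which was lost in 17 alternatives, among them DESeq2 (adjusted p 0.106) and the omission of any GM library. Of the translation and RNA processing lists, the elongation factor gene Eef2, the splicing factor gene Hnrnpl and the bromodomain gene Brd2 fell by 0.40, 0.46 and 0.27, and the RNA helicase gene Ddx5 rose by 0.30. By their edges the sterol and lipid enzymes Scd2 and Sqle rose by 1.63 and 1.28. Among the widest regions, Sertad4 rose by 1.35, Ubtf fell by 0.47, and Gfi1 fell from 1.59 to 0.0988 CPM.

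RNA calls were also counted by what became of the peak. Over genes at regions covered to at least 95% at 60 h, 85 of 235 were higher and 92 lower. At regions covered to between 75 and 95%, 34 of 117 were higher and 57 lower. At regions covered to less than 75%, 13 of 35 were higher and 14 lower. At regions widened more than 1.1 times, 8 of 13 genes were higher and 4 lower. Levels were low for Gm10602 (0.242 CPM in GM, 0.521 at 60 h) and Nacad (1.22 and 1.74 CPM) among the higher. Among the lower, Sema6b was low (1.57 and 0.557 CPM). Gm10602 and Inppl1 share a region. The higher ones included Neurl1a, by 1.20, Tpm2, the protocadherin Pcdh7, by 0.79, and the lipid phosphatase Inppl1, by 0.27, and the lower ones the actin bundler Fscn1, by 0.65. At the 287 weakest regions by fold, 3 of 16 genes were higher and 10 lower. Over all genes tested 33.1% were higher at 60 h and 32.2% lower. The class values are counts of called genes with no test between the classes.

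Hi-C loops and domain boundaries were the other readouts independent of the choice of regions. Loop anchors are 25 kb wide, so sharing 1 says that a region lies within that bin. A loop anchor overlapped 933 regions, 81.3% with a 95% exact interval of 78.9 to 83.5%, and 77.4% (76.9 to 77.9%) of the narrower kept peaks. An anchor of a loop called in both conditions overlapped 27.8% (25.2 to 30.5%) against 21.6% (21.2 to 22.1%). With no loop called in both, anchors of GM loops alone overlapped 18.7% against 21.5%, and of DM60h loops alone 10.0% against 11.7%. Taking only the centre gave 80.1% against 76.5%. Of the 63732 loops, 2777 had a broad kept peak in an anchor: 48.3% of these were called in GM, 36.7% at 60 h and 14.98% in both, against 51.1%, 37.7% and 11.2% of all loops. In 64 loops both anchors held 1.

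Among genes with a start site, 43 of the 118 at a loop called in both conditions were higher at 60 h and 50 lower, and 21 of the 59 at no loop were higher and 21 lower. At loops called in GM alone 21 of 65 were higher and 32 lower, and at loops called at 60 h alone 12 of 38 were higher and 14 lower. Genes at regions with separate GM and DM60h loops, and none called in both, are in none of these classes. Over all genes tested 33.1% were higher and 32.2% lower, and no test was made between the classes. Klhl40 lay in the anchor of 1 loop called at 60 h, Hmga2 in anchors of 3 GM and 1 DM60h loops, and Malat1 and Myf5 in none. Egr2 lay in anchors of 3 GM loops, 2 DM60h loops and 3 called in both. A boundary of topologically associating domains, 40 kb wide, overlapped 70 regions, 6.10% (4.78 to 7.64%), against 6.64% (6.37 to 6.93%) of the narrower kept peaks. A boundary was present in both conditions at 31 of them, in GM alone at 20 and at 60 h alone at 19. The region at Klhl40 met a boundary at 60 h alone.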

How the data were processed

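RNA-seq counts per gene, ATAC-seq broad peaks, Hi-C loops and domain boundaries of C2C12 cells were used. The RNA values are whole-number counts as deposited. The deposited peak lists give a fold enrichment (ratio over background) and a −log10 q for each peak. The boundary files carry a deposited score, which was not used. Loops are listed with the conditions in which the authors called them. Per the submitters' processing notes, the build is mm10 and the tools named are Bowtie2 2.2.6, SAMtools 1.9, deepTools 2.5.2, MACS2 2.2.7, STAR, RSEM, HiC-Pro, DESeq2 and edgeR. The labels used here state neither their roles nor whether libraries were pooled before peak calling.

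Genes were fitted in edgeR 4.0.16 (R 4.3.3) by quasi-likelihood on all 18 RNA libraries with group as the only term, TMM scaling, filterByExpr and Benjamini-Hochberg adjustment at 0.05 over the 15303 genes tested. SEs were derived from the fold change and the F statistic. On simulated counts of 14962 genes for 60 h against GM, 94.0%, 98.5% and 100% of genes changed 1.5, 2 and 4-fold were recovered, with 6 false calls. The simulation gave every gene the same dispersion and equal means in all groups, apart from the genes changed at 60 h. It therefore does not measure the error rate of the fit to the real counts. Peaks were overlapped at 1 bp in Python, and no test was made over regions. Shares carry exact 95% Clopper-Pearson intervals, which cover counting error only. RefSeq start sites (GRCm38.p6) have no entries on chromosome 18, which holds 31 of the regions, and hold 79.9% of coding genes. Peak sequence beyond the promoter windows was not analysed here. A gene counts as an edge gene where its RefSeq start or end lies in a region and the start-site table has no entry for it.

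Regions and gene lists were chosen with earlier results of these data known. Named regions are the 15 widest, the 5 largest and 5 smallest width ratios, those nearest the width limit, the 5 longest runs (by regions, then by span) and those at fixed gene lists. Named genes are those in these regions, the 10 largest called rises and falls at 60 h and the first 3 at other times among genes whose mean reached 3 on the log2 CPM scale, and up to 4 called genes per list. The 3 regions of highest fold, the genes of the widened regions and the genes named by an edge were added after their values were seen. A few named results are not reported here. Alternatives covered the width limit, overlap, q, start-site distance, scaling, filter, DESeq2 1.42.0, a replicate block and omission of each library.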

Additional observations from a re-analysis of the deposited data

How the results depend on the processing

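A limit of 2000 bp gave 3570 regions with a median width ratio of 0.973, and a limit of 3000 bp gave 412 with a ratio of 0.907 and 34.1% holding a start site. The ratio was 0.967 where DM60h peaks covered at least 50%, 0.969 at a −log10 q of at least 5 (where 44.1% held a start site), 1.08 with the width rule set on DM60h peaks and 0.972 without the 287 weakest regions by fold. A start site within 500 bp of the centre was held by 18.04%. These last 2 alternatives were chosen after seeing the data. Loop shares stayed within 80.1 to 82.8% and boundary shares within 5.34 to 6.58%. With no count filter the shares of genes lower were 23.4% at 12 h (8.17% of all genes), 23.2% at 24 h, 31.3% at 48 h and 36.9% at 60 h (19.5% of all genes), and the shares higher 31.3% at 48 h, 28.8% at 60 h and 37.6% at 96 h. Scaling by total counts gave 48.1% lower and 28.4% higher at 60 h, with 37.9% and 27.2% over all genes. For each of these the cause was not tested, except that more genes enter without a filter. Omitting 1 library at a time gave 13.3 to 17.9% higher and 22.8 to 31.5% lower at 12 h, 33.5 to 37.4% and 23.8 to 29.4% at 24 h, 32.7 to 37.9% and 33.8 to 37.1% at 48 h, 29.2 to 33.5% and 39.1 to 43.7% at 60 h, and 39.9 to 43.7% and 30.4 to 33.3% at 96 h. Over all genes the ranges were 15.6 to 21.1% higher and 11.9 to 16.6% lower at 12 h, and 27.5 to 31.8% and 27.4 to 30.0% at 24 h. At 48 h they were 28.7 to 33.0% and 30.2 to 33.7%, and at 60 h 28.5 to 31.6% and 29.7 to 34.3%. At 96 h they were 31.4 to 34.6% and 32.6 to 34.7%. Deviations of same-numbered GM and 60 h libraries correlated at r −0.04, −0.09 and 0.24, and those of differently numbered ones at −0.23 to 0.27. Over all groups, same-numbered libraries correlated at r −0.497 to 0.327 and differently numbered ones at −0.456 to 0.467. Whether the numbers pair the libraries was not tested. With the replicate block 41.6% were lower and 33.6% higher at 60 h, and 31.8% lower at 12 h. Of 71 named genes, 68 kept direction and call in every setting run, and the exceptions were E2f3, Col1a2 and Neat1. The peak lists carry no counts, so their depth cannot be given.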
